A study of Mus musculus with 3 samples.

Results

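Rn7s1, Rn7s2, Rn7sk, Rmrp and Rpph1 are the mouse genes of 4 structural noncoding RNAs: the 7SL RNA (Rn7s1 and Rn7s2), the 7SK RNA (Rn7sk), the RNA of RNase MRP (Rmrp) and the RNA of RNase P (Rpph1). They were taken by symbol, as 5 of the 49585 gene rows of the count tables, and they were chosen by their high counts in these libraries, so their abundance is described here and not tested. Counts came from total RNA of the midbrain of C57BL/6 mice at postnatal day 3. There were 2 libraries of the genotype labelled FGR, a short form whose meaning the labels leave out, and 1 library labelled wild type (WT). All 3 share strain, age, tissue, Trizol extraction of frozen tissue and a TruSeq RNA kit. The labels name neither an allele, a promoter nor an agent behind FGR, and they do not say how many animals gave the FGR libraries. A p-value here reflects the spread between these FGR libraries, moderated by the spread of all genes. The FGR libraries differed in sex-linked transcripts. With 1 WT library, a difference of that library in litter, tissue taken or handling and a difference of genotype cannot be told apart.

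All 4 RNAs are made by RNA polymerase III and work inside protein complexes. 7SL is the scaffold of the signal recognition particle (SRP), which binds signal peptides as they leave the ribosome and brings the ribosome to the endoplasmic reticulum. 7SK holds the kinase P-TEFb in an inactive particle together with HEXIM proteins and so limits the release of paused RNA polymerase II. RNase P trims the leader from precursor tRNAs, and RNase MRP, which shares most of its proteins with RNase P, cleaves precursor ribosomal RNA. None carries the poly(A) tail of an mRNA, and the labels do not say how RNA was selected for the libraries.

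Sequence decides what a read can be assigned to, and the sequences shown are those that set the limits of each count. Each comes from GENCODE M21 (GRCm38), where all 5 gene identifiers were found with the length given in the count tables. The build behind the counts is not given in the sources used here. Rn7s1 (ENSMUSG00000099021.1) lay at chr12:69159295-69159594 on the plus strand and Rn7s2 (ENSMUSG00000099250.1) at chr12:69361182-69361481 on the minus strand. Both were 300 bases long and identical at 300 of 300 positions. A shorter 7SL copy, Rn7s6 at chr6:69516339-69516629 on the plus strand, was 85% identical to them over 306 alignment columns. In both of these RNAs, positions 42 to 214 lie in windows of 50 bases found letter for letter in the other.

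Rn7sk (ENSMUSG00000065037.1) is a gene of 331 bases at chr9:78175303-78175633 on the minus strand, shown from base 1 to 300. Capitals mark positions 1 to 241, in which each base belongs to a 50-base window also present in Gm24447, a 7SK-like row on chromosome 15.
Rn7sk: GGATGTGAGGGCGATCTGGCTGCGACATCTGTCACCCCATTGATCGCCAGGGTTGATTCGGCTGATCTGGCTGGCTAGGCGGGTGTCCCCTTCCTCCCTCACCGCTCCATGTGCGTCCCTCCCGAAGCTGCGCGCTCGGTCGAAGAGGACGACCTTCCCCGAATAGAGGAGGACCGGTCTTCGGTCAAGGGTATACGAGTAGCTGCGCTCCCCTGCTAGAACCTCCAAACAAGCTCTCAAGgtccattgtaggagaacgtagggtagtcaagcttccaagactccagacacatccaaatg

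Rmrp (ENSMUSG00000088088.1) spans 271 bases at chr4:43492788-43493058 on the minus strand. A stretch of 159 bases at its 5' end lies over the start of Ccdc107, a protein-coding gene on the opposite strand, and capitals mark the 124 bases (positions 36 to 159) whose complement stands in a Ccdc107 transcript. Rpph1 (ENSMUSG00000092837.1) spans 319 bases at chr14:50807449-50807767 on the minus strand and overlaps the protein-coding gene Ccnb1ip1 by 284 bases on the same strand; bases 1 to 300 are shown. Capitals in Rpph1 mark the 233 bases (positions 36 to 268) that a Ccnb1ip1 transcript also holds.
Rmrp: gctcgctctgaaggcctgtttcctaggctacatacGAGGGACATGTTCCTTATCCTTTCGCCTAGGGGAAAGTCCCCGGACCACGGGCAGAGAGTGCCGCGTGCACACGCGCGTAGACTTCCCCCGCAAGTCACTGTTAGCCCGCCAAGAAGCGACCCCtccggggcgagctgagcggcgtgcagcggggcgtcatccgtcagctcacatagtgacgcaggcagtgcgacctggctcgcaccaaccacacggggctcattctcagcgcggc
Rpph1: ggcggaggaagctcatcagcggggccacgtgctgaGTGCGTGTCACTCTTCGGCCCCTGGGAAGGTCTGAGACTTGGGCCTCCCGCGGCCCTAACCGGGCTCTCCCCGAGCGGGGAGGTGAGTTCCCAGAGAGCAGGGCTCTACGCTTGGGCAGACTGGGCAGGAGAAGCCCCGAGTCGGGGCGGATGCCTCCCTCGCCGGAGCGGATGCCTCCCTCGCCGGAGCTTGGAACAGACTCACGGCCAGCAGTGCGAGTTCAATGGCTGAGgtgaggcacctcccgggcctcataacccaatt

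The RNAs shared little sequence with each other beyond the 7SL copies, with 51% to 53.2% identity in end-to-end alignments of different RNAs, and all were rich in G and C (58% in Rn7sk to 67.1% in Rpph1). In Rn7sk the tetramer GATC, the DNA spelling of the GAUC motif through which HEXIM binds 7SK in human cells, began at positions 13, 42 and 64. The tetramer reads the same on both strands, and 63.3% of 5627 annotated transcripts of 250 to 350 bases held it, so its presence alone does not set Rn7sk apart.

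**Figure D1:**
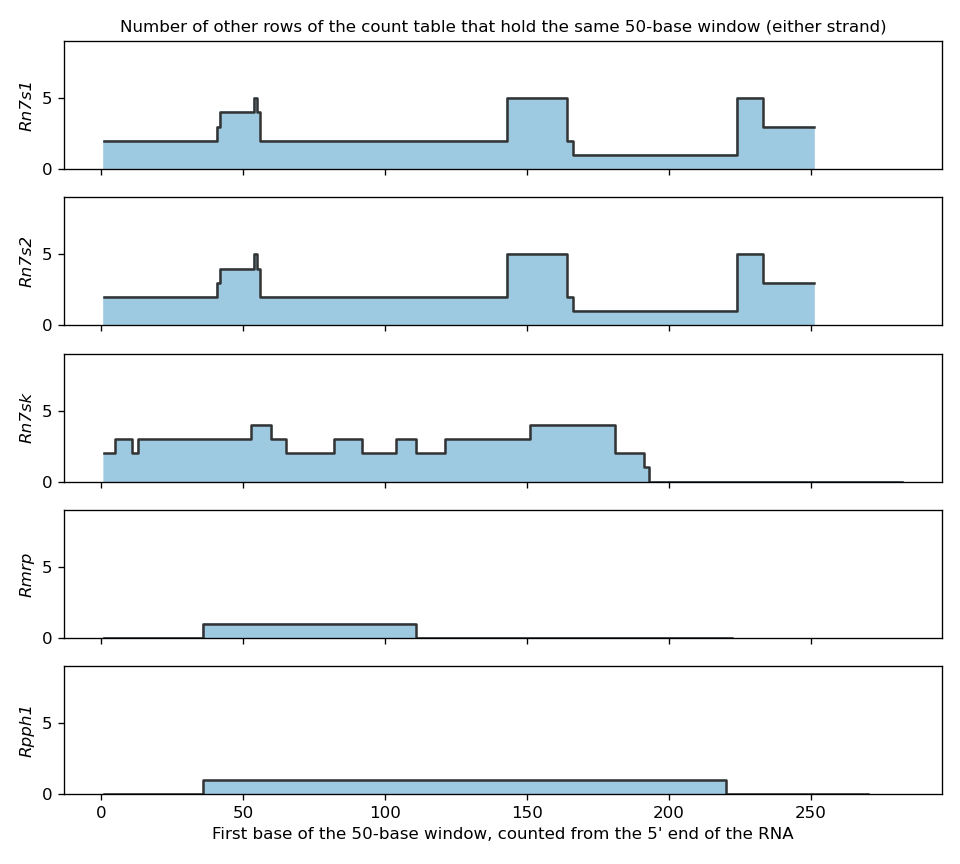
For each structural RNA, the number of other rows of the count table (y axis) that hold the same window of 50 bases on either strand, by the first base of the window (x axis, bases from the 5' end). Every window of Rn7s1 and Rn7s2 occurs in at least 1 other row, while Rn7sk is free of shared windows from position 193 on and Rmrp and Rpph1 share windows with 1 row each.

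The plot of shared windows shows how far each count can be told apart from those of other rows. For Rn7s1 and Rn7s2, 251 of 251 windows also occurred in another row, and up to 5 other rows held the same letters. Rn7sk shared 192 of 282 windows, all in its first part. Rmrp shared 75 of 222 windows and Rpph1 184 of 270, each with the 1 overlapping protein-coding gene. Besides the 5 genes, 18 rows for small RNAs shared at least 1 window with a member, 11 with 7SL and 7 with 7SK.

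Total counts were 58444481 and 46240262 in the FGR libraries and 52874311 in WT, with 32458 and 32030 rows above 0 in FGR and 32663 in WT. Midbrain markers were present in all libraries (12 of 12 listed genes tested, summed level 280.8 and 259.3 CPM in FGR and 255.6 CPM in WT, where CPM are counts scaled to a common library size), and 3 of them rose (1 in DESeq2) and 1, Slc6a3, fell. Markers of other tissue moved with the groups. Summed hypothalamic markers were at 9.72 and 10.04 CPM in FGR and 42.4 CPM in WT. Of 10 genes, 7 were called lower in edgeR, limma-voom and a robust edgeR fit and 2 in DESeq2. Oxt and Nkx2-4 had 0 counts in both FGR libraries. Summed meningeal markers were at 366.1 and 597.6 CPM in FGR and 929.4 CPM in WT. Of 10 genes, 7 were called lower in edgeR, 8 in limma-voom and 0 in DESeq2 and the robust edgeR fit. Both FGR libraries were below WT for all 10, against 38.2% of all genes tested. Over all genes tested, edgeR called 1.66% higher and 2.59% lower in FGR. In either direction, DESeq2 called 1.4% of them, limma-voom 4.24% and the robust edgeR fit 4.82%. Summed erythroid markers were at 307.1 and 338.6 CPM in FGR and 209.4 CPM in WT, with 4 of 5 tested genes higher, while Hbb-y and Hbb-bh1 had too few counts to be tested. Xist, the transcript that coats the inactive X chromosome of females, had 591.1 and 1.71 CPM in FGR and 541.2 CPM in WT. The Y-linked gene Ddx3y had 0.034 and 64.4 CPM in FGR and 0 in WT, and Eif2s3y, also Y-linked, had 0.052 and 43.8 CPM in FGR and 0 in WT. FGR replicate 2 thus had the transcripts of a male and FGR replicate 1 and WT those of a female, so the FGR libraries were not repeats of 1 animal, and the SD, SE and p-values given here hold this difference. The part of these differences in the levels of the structural RNAs was not tested.

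The 5 genes together took a larger share of the counts in both FGR libraries than in WT. They held 8.999% (95% exact binomial interval 8.9912% to 9.0059%) of the counts in FGR replicate 1 and 9.676% (9.6677% to 9.6848%) in FGR replicate 2, which is 9.34% ± 0.48 (SD, n = 2), and 7.89% (7.8871% to 7.9016%) in WT. These intervals cover counting error only, and the difference between the FGR libraries was far wider than either of them. The 7SL pair made up most of this, with 7.19% and 7.87% in FGR and 6.48% in WT. In bulk tissue, a change in the cells present and a change in RNA per cell cannot be told apart.

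Rn7s1 had 2091344 and 1827627 counts in FGR and 1700819 in WT, and Rn7s2 had 2110342 and 1811827 in FGR and 1724680 in WT. They were the highest and second highest rows of every library, and which of them led differed between the libraries. Rn7s1 received 49.77% (49.73% to 49.82%) and 50.22% (50.17% to 50.27%) of the pair's counts in FGR and 49.65% (49.6% to 49.7%) in WT. The division was close to even, though none of these intervals reached an even division. Since the copies are identical, a read within them cannot be placed in one rather than the other. The division is therefore no measure of the activity of each gene. Whether such reads were divided or counted at both copies is not given in the sources used here. Counted only once, as the mean of the pair, 7SL would bring the share of the members to 5.79% in FGR and 4.81% in WT.

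Rn7sk had 800049 and 625975 counts in FGR, which is 1.37% and 1.35% of the libraries, and 540432 counts or 1.02% in WT. It was the fifth row by count in every library. Rpph1 had 184759 and 141712 counts in FGR (0.316% and 0.306%) and 143494 in WT (0.271%), at ranks 14 and 15 in FGR and 17 in WT. Rmrp had 72666 and 67173 counts in FGR (0.124% and 0.145%) and 64657 in WT (0.122%), at ranks 40 and 33 in FGR and 43 in WT.

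**Figure D2:**
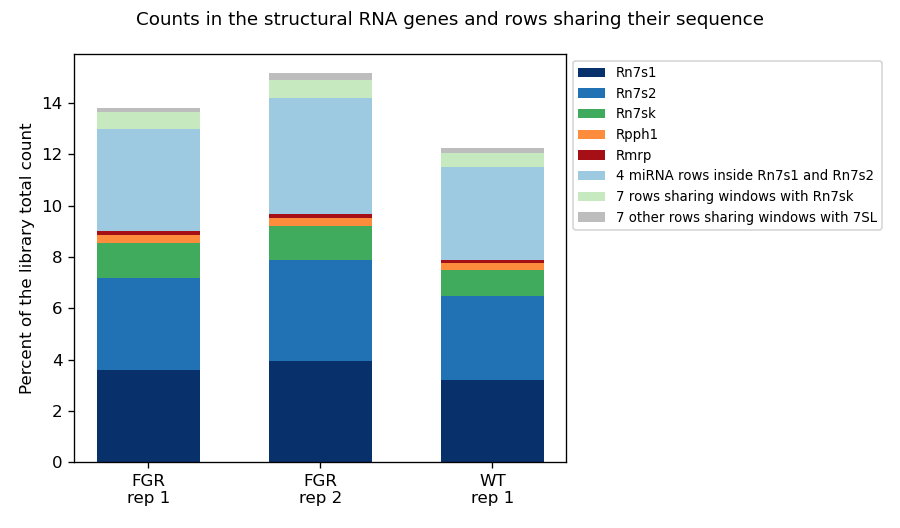
Percent of the library total count (y axis) held by the structural RNA genes and by the 18 rows that share 50-base windows with them, stacked for each library (x axis). The 5 genes alone reach 8.999% and 9.676% in FGR and 7.89% in WT, and the whole stacks reach 13.83% and 15.16% in FGR and 12.23% in WT.

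The rows that share sequence with 7SL and 7SK were large as well. Several are small annotations inside the 7SL genes, and AC099934.1 and AC157822.1 ranked next after those genes by count. AC099934.2 covers bases 143 to 212 of Rn7s1 and AC099934.1 bases 224 to 300, both annotated as miRNAs, and AC157822.2 and AC157822.1 cover the same stretches of Rn7s2. AC099934.1 had 842773 and 727267 counts in FGR and 690186 in WT, and AC099934.2 had 329802 and 329148 in FGR and 267861 in WT. Together the 4 annotations took 4.01% and 4.54% of the counts in FGR and 3.63% in WT. Since they lie wholly or nearly wholly within the 7SL genes, their counts cannot be told apart from 7SL itself.

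The annotated stretches did not keep a fixed ratio. The counts of the middle stretch over those of the end stretch were 0.391 and 0.453 in FGR and 0.388 in WT for Rn7s1, and 0.414 and 0.487 in FGR and 0.410 in WT for Rn7s2. FGR replicate 2 was the high library in both copies, while FGR replicate 1 and WT were close. Rn7s6, the shorter copy, had 1014 and 1476 CPM in FGR and 1016 CPM in WT, so FGR replicate 2 again stood alone (log2 fold change 0.29 ± 0.17, adjusted p = 0.4057 in edgeR's quasi-likelihood test). AC156953.1, the matching stretch (bases 143 to 212) inside Rn7s6, had 696.6 and 1099 CPM in FGR and 701.5 CPM in WT. For 7SK, Gm24447 had 3412 and 3605 CPM in FGR and 2686 CPM in WT, and Gm26315 had 3155 and 3390.0 CPM in FGR and 2560.1 CPM in WT. Both 7SK-like rows were higher in each FGR library, as Rn7sk was, and neither passed the test (adjusted p = 0.1743 and 0.2119 in edgeR).

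Per base of RNA, the order of the members was the same in all libraries apart from the 7SL pair. The authors' deposited RPKM of Rn7s1 was 119278 and 131749 in FGR and 107224 in WT, and that of Rn7s2 was 120362 and 130610 in FGR and 108728 in WT. Rn7sk followed with 41357 and 40899 RPKM in FGR and 30879 RPKM in WT. Rpph1 had 9910 and 9607 RPKM in FGR and 8507 RPKM in WT. Rmrp was lowest with 4588 and 5361 RPKM in FGR and 4512 RPKM in WT. No neighbours in this order overlapped except Rn7s1 and Rn7s2, which do not differ beyond their spread. By RPKM the members stood at ranks 3 to 12 of all rows.

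The ratios between members differed by library. The summed RPKM of the 7SL genes was 5.79 and 6.42 times that of Rn7sk in FGR and 6.99 times in WT, so both FGR libraries lay below WT. Rn7sk stood at 4.17 and 4.26 times the RPKM of Rpph1 in FGR and 3.63 times in WT, with both FGR libraries above WT. The RPKM of Rpph1 over that of Rmrp, the pair of related ribonucleases, was 2.16 and 1.79 in FGR and 1.89 in WT, and here WT lay between the FGR libraries.

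FGR was then set against WT on counts scaled by the trimmed mean of M values (TMM), which brings the bulk of genes to a common level, with edgeR's two-sided quasi-likelihood F test over 25561 genes. Each of the 5 genes was higher in both FGR libraries than in WT on this scale, as were 38.5% of all genes tested, and 0 of 5 passed an adjusted p of 0.05. Of all genes, 4.25% passed (1.66% higher and 2.59% lower in FGR). The members' log2 fold changes lay between 0.18 and 0.45 with a median of 0.25, and the median over all genes tested was 0.01. At an unadjusted p under 0.05 the count was 1 of 5 in edgeR, where 18.3% of all genes were below it, and 4 of 5 in DESeq2 (6.9% of all genes), limma-voom (18.7%) and a robust edgeR fit (18.5%). After adjustment these 3 tools each called 1 member, Rn7sk, and 1.4%, 4.24% and 4.82% of all genes, in that order. Rn7s1 and Rn7s2 are identical in sequence, so they do not count as separate RNAs in these counts of members. The replicates in the edgeR test were the FGR pair alone, with 1 residual degree of freedom. The test draws each gene's spread towards a trend over all genes. Its SE and p-values are therefore not set by the 2 FGR values of that gene alone.

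**Figure D3:**
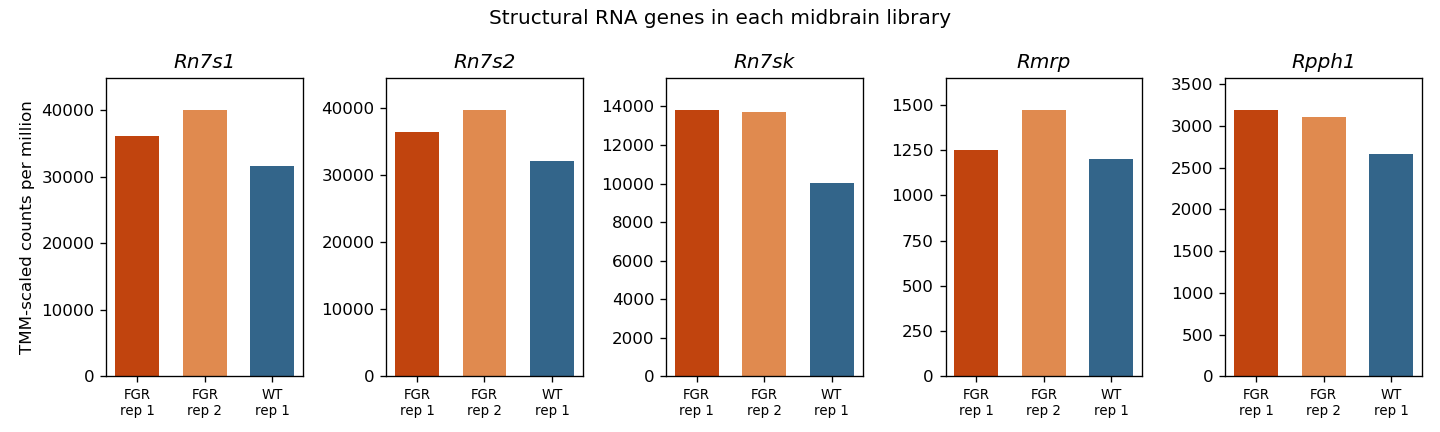
TMM-scaled CPM (y axis, starting at 0, a separate scale in each panel) of the 5 structural RNA genes in FGR replicates 1 and 2 and WT replicate 1 (x axis), 1 bar per library. All FGR bars stand above the WT bar, and relative to the WT level the gap between the FGR mean and WT is widest in Rn7sk. On the TPM scale Rmrp in FGR replicate 1 and Rpph1 in FGR replicate 2 fall below WT.

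Rn7s1 had 36056 and 39983 CPM in FGR (38019 ± 2777, SD, n = 2) and 31597 CPM in WT. Its log2 fold change was 0.27 ± 0.26 (SE), with an adjusted p of 0.6455 in edgeR. Rn7s2 had 36383 and 39637 CPM in FGR (38010.2 ± 2301) and 32041 CPM in WT, with a log2 fold change of 0.25 ± 0.25 and an adjusted p of 0.6707 in edgeR. FGR replicate 2 was the high library for both 7SL rows, and the gap between the FGR libraries was nearly as wide as the gap between FGR replicate 1 and WT.

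Rn7sk, which keeps P-TEFb inactive, had 13793 and 13694 CPM in FGR (13744 ± 69.9) and 10040 CPM in WT. The FGR libraries lay close together and well above WT, at 1.37 times its level. The log2 fold change of 0.45 ± 0.20 had an unadjusted p of 0.03953 and an adjusted p of 0.2419 in edgeR. After adjustment it passed in DESeq2 (adjusted p = 1.378e-06), in limma-voom (0.001229), in the robust edgeR fit (0.02341) and without the filter on low counts (0.01021), so the call depended on the tool; over all alternatives run, the adjusted p was between 1.378e-06 and 0.3791.

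Rpph1, the catalytic RNA of RNase P, had 3185 and 3100.2 CPM in FGR (3143 ± 60.2) and 2666 CPM in WT. The FGR libraries were closer to each other than to WT, and the log2 fold change of 0.24 ± 0.14 did not pass (adjusted p = 0.4207 in edgeR). Rmrp had 1253 and 1469.5 CPM in FGR (1361 ± 153) and 1201 CPM in WT, a log2 fold change of 0.18 ± 0.13 (adjusted p = 0.522 in edgeR). FGR replicate 1 was nearer to WT than to FGR replicate 2. In TPM, where the deposited RPKM values of each library are rescaled to a common sum, the direction of these 2 genes split: Rmrp had 4021 and 4292 TPM in FGR and 4244 TPM in WT, and Rpph1 had 8685 and 7692 TPM in FGR and 8002 TPM in WT.

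Genes next to or over the members were set beside them. Ccdc107, which lies over part of Rmrp on the other strand, had 229.5 and 269.9 CPM in FGR and 228.9 CPM in WT (log2 fold change 0.12, adjusted p = 0.5564 in edgeR), so its order across the libraries was that of Rmrp. Use of strand in the counting is not stated, and without it reads of Rmrp and Ccdc107 cannot be told apart over the shared stretch. Ccnb1ip1, which in GENCODE M21 holds most of Rpph1 on the same strand, had 2 and 0 counts in FGR and 3 in WT. Almost no reads over that stretch were therefore counted to Ccnb1ip1. The rows inside Rn7s1 and Rn7s2 also lie on the same strand and did take counts, so the rule for overlapping rows remains unknown. Parp2, a DNA repair gene that starts 74 bases from Rpph1 on the opposite strand, had 13.6 and 14.1 CPM in FGR and 11.9 CPM in WT (log2 fold change 0.22, adjusted p = 0.4312 in edgeR). Rps29, a ribosomal protein gene 109 bases from Rn7s1, had 86.1 and 100.2 CPM in FGR and 87.3 CPM in WT (log2 fold change 0.09, adjusted p = 0.6104 in edgeR).

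Among the genes for proteins that work with these RNAs, 1 of the 7SK particle and 1 of the polymerase III machinery passed the edgeR test. Of all genes tested, 4.25% passed it. Of the 9 tested genes for SRP proteins and the SRP receptor, 0 rose and 0 fell in edgeR (1 at an unadjusted p under 0.05, and 0 after adjustment in DESeq2, limma-voom and the robust fit). Both FGR libraries were above WT for 4 of the 9 and below for 4, near the 38.5% and 38.2% of all genes, and the median log2 fold change was -0.01, against 0.01 over all genes. Srp54a, the signal peptide-binding GTPase and the highest of the list per length, had 116.0 and 115.9 RPKM in FGR and 121.6 RPKM in WT. Srprb, the membrane-anchored receptor subunit, had the largest difference with 40.3 and 40.3 CPM in FGR and 46.7 CPM in WT, and did not pass (log2 fold change -0.21, adjusted p = 0.1365 in edgeR).

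Of 7 genes of the 7SK particle and P-TEFb, 1 rose and 0 fell, with a median log2 fold change of 0.07. Ccnt1, the cyclin T1 subunit of P-TEFb, had 88.7 and 87.0 CPM in FGR and 71.4 CPM in WT, and rose by 0.30 ± 0.06 on the log2 scale (adjusted p = 0.01751 in edgeR). Ccnt1 also passed in limma-voom and the robust fit and did not pass in DESeq2 (adjusted p = 0.1534). Its kinase Cdk9, the highest of the list per length in the mean over all 3 libraries, had 9.77 and 9.14 RPKM in FGR and 9.28 RPKM in WT. The inhibitors Hexim1 (29.8 and 28.7 CPM in FGR, 30.1 CPM in WT) and Hexim2 (23.8 and 20.96 CPM in FGR, 20.7 CPM in WT) did not pass, nor did Larp7 (11.6 and 10.7 CPM in FGR, 12.1 CPM in WT), which protects the 3' end of 7SK, or Mepce (27.5 and 25.6 CPM in FGR, 26.0 CPM in WT), which caps its 5' end.

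Of the 11 protein genes of RNase P and RNase MRP, 0 rose and 0 fell in edgeR, with 1 at an unadjusted p under 0.05 and 0 after adjustment in the other 3 tests. Both FGR libraries were below WT for 6 of the 11, against 38.2% of all genes, and above for 2, against 38.5%. The median log2 fold change was -0.09, while that of Rmrp and Rpph1 themselves was positive on the TMM scale. Pop7, the highest per length, had 17.4 and 18.6 RPKM in FGR and 19.6 RPKM in WT. Rpp40 lay furthest from 0 in the list with 2.53 and 3.00 CPM in FGR and 3.88 CPM in WT and did not pass (log2 fold change -0.49, adjusted p = 0.2007 in edgeR).

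Of 29 genes of RNA polymerase III and its factors, 1 rose and 0 fell, and both FGR libraries were above WT for 18, that is 62.1% against 38.5% of all genes tested. The median log2 fold change was 0.09. Maf1, a repressor of polymerase III, had 73.8 and 75.2 CPM in FGR and 61.2 CPM in WT and rose by 0.29 ± 0.06 on the log2 scale (adjusted p = 0.02021 in edgeR; 0.2374 in DESeq2). Polr3e, a subunit of the enzyme, had the largest log2 fold change of the list, 0.31 ± 0.09, with 36.2 and 38.7 CPM in FGR and 30.2 CPM in WT, and did not pass (adjusted p = 0.07007 in edgeR). Ssb, the La protein that binds the ends of new polymerase III transcripts and the highest of the list per length, had 45.5 and 44.8 RPKM in FGR and 40.6 RPKM in WT (adjusted p = 0.1211 in edgeR). Of the factors that recruit polymerase III, Tbp had 57.2 and 56.7 CPM in FGR and 48.8 CPM in WT (adjusted p = 0.08158) and Gtf3c4 had 132.0 and 133.2 CPM in FGR and 112.6 CPM in WT (adjusted p = 0.07276), both in edgeR. At an unadjusted p under 0.05 there were 9 of 29 in edgeR, against 18.3% of all genes, and the robust edgeR fit called 2.

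**Figure D4:**
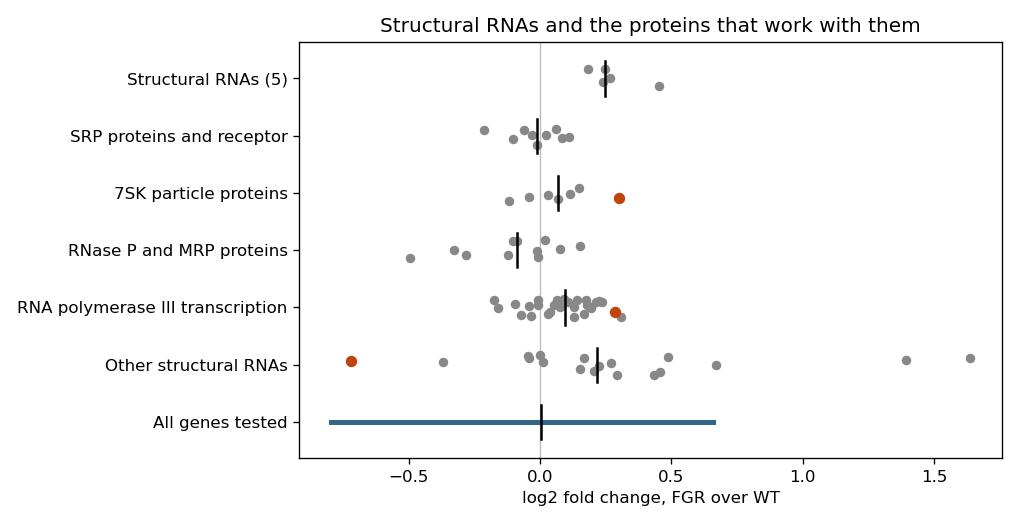
Log2 fold change of FGR over WT (x axis) for each tested gene of the structural RNAs, of their protein partners and of other structural RNAs, 1 point per gene, with a black tick at the median of each list and genes past an adjusted p of 0.05 in orange. The bar for all genes tested runs from the 5th to the 95th percentile, -0.80 to 0.66, with its median at 0.01, and all 5 structural RNAs lie inside it.

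Among other structural RNAs, 1 row passed the edgeR test, which 4.25% of all genes passed. Of 26 rows for spliceosomal, U3, vault, Y, telomerase and ribosomal RNAs and 7SL or RNase P copies, 18 were tested. Both FGR libraries were above WT for 8 of the 18 (44.4%, against 38.5% of all genes) and below for 2 (against 38.2% of all genes). The median log2 fold change was 0.22, and 0 rose and 1 fell. The 1 was Rn18s-rs5, a copy of the 18S ribosomal RNA, with 853.0 and 1350 CPM in FGR and 1812 CPM in WT (log2 fold change -0.72 ± 0.19, adjusted p = 0.04803 in edgeR). Its libraries spread widely, and the call depended on the processing. It did not pass with the members left out of library totals (adjusted p = 0.09042), with the 7SL rows summed (0.05234) or at a minimum count of 50 (0.1214). Nor did it pass in the robust fit (0.6671) or DESeq2 (0.7856). It passed in the other 9 alternatives, among them library totals (0.02623, edgeR) and limma-voom (0.01762). The U3 genes Rnu3b1 (96.3 and 126.5 CPM in FGR, 110.5 CPM in WT) and Rnu3b4 (93.0 and 119.7 CPM in FGR, 106.3 CPM in WT) had WT between the FGR libraries. Terc, the template RNA of telomerase, had 2.86 and 2.45 CPM in FGR and 1.97 CPM in WT (adjusted p = 0.3394 in edgeR). The Y RNAs and the vault RNA, which are also polymerase III products, had at most 7 counts in any library, and Rnu6 had 0 and 1 in FGR and 1 in WT, far below the least abundant member, Rmrp.

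Other classes of RNA were set beside the members. Rows with a Hist symbol, a family that includes the replication-dependent histone mRNAs, summed to 1788 and 2295 CPM in FGR and 2513 CPM in WT, and 16 of 68 tested fell and 1 rose in edgeR (8 and 0 in DESeq2). Small nucleolar RNAs summed to 1412 and 1491 CPM in FGR and 1324 CPM in WT, and 1 of 131 tested rose and 0 fell in edgeR (3 and 0 in limma-voom, 4 and 0 in the robust fit, and 1 and 0 in DESeq2, with 10 at an unadjusted p under 0.05 in edgeR). Mitochondrial mRNAs summed to 8886 and 9609 CPM in FGR and 9142 CPM in WT, and 0 of 13 were called by edgeR, DESeq2, limma-voom or the robust fit (1 at an unadjusted p under 0.05). Of all genes tested, edgeR called 1.66% higher and 2.59% lower, and 18.3% had an unadjusted p under 0.05. In either direction, DESeq2 called 1.4% of all genes, limma-voom 4.24% and the robust fit 4.82%. FGR replicate 2 had the highest sum of snoRNAs, as it had the highest 7SL, and the part of RNA selection in the members' levels was not tested.

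The members held an unequal share of the libraries, and leaving them out of the scale changed how the other genes were placed. With library totals as the scale, the median log2 ratio over the 25545 other genes was -0.041 in FGR replicate 1 over WT and -0.034 in FGR replicate 2 over WT. Leaving the 5 members out of the totals moved these medians up to -0.024 and -0.006, a shift of 0.017 and 0.028. Leaving out the 18 sharing rows as well gave -0.015 and 0.015. With TMM the medians were -0.005 and 0.008 with all rows, and -0.015 and -0.001 with the members left out.

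The number of called genes also differed between these scalings. Scaling by library totals gave 1359 calls, of which 332 were higher and 1027 lower in FGR, so 24.4% were higher. With the members out of the totals there were 742 calls (236 higher and 506 lower, 31.8% higher), all 742 of them also called with TMM on all rows. With the sharing rows out as well there were 1084 (429 higher and 655 lower, 39.6% higher). TMM gave 1087 calls with all rows (424 higher and 663 lower, 39.0% higher), 1110 with the members out, of which 1052 were shared, and 1464 with the sharing rows out too, among them all 1087. No member passed the edgeR test under any of these scalings.

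**Figure D5:**
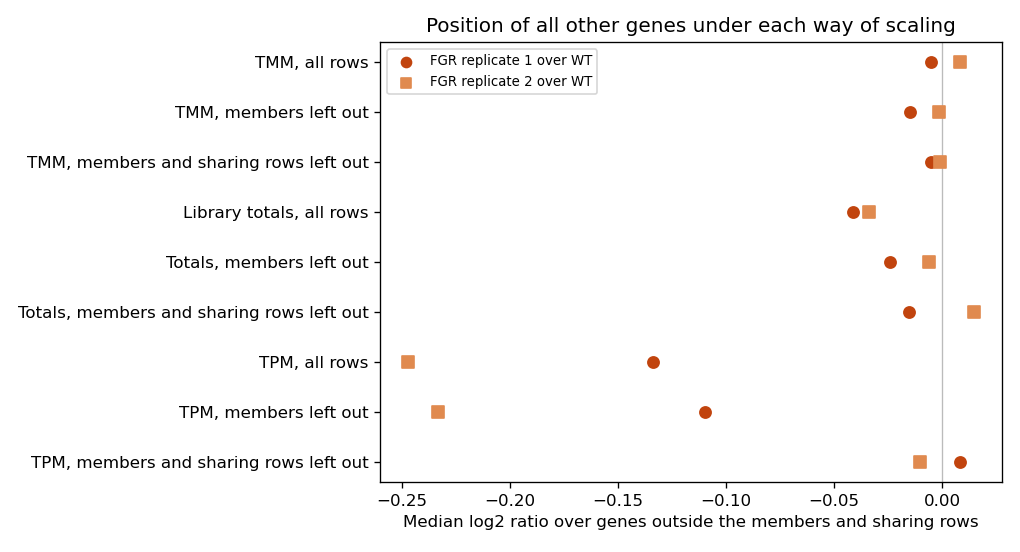
Median log2 ratio over genes outside the members and the sharing rows (x axis), for FGR replicate 1 over WT (circles) and FGR replicate 2 over WT (squares), under 9 ways of scaling (rows). TPM over all rows puts the median at -0.13 and -0.25, and leaving out members and sharing rows brings it to 0.01 and -0.01.

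On a scale per length the rows that share sequence with the members weighed most. The members took 25.9% and 25.5% of the summed RPKM in FGR and 24.4% in WT, and with the sharing rows 74.7% and 76.5% in FGR and 71.9% in WT, since short rows with high counts weigh most per base. Rescaled to TPM, the median log2 ratio of the other genes (pseudocount 0.1 TPM) was -0.13 for FGR replicate 1 over WT and -0.25 for FGR replicate 2 over WT, and 70.7% and 82.3% of genes were lower in FGR. Leaving out the 5 members gave -0.11 and -0.23. Leaving out the sharing rows too gave 0.01 and -0.01, with 48.8% and 51.5% of genes lower in FGR. In TPM itself, Rmrp in FGR replicate 1 and Rpph1 in FGR replicate 2 were below WT. Relative to the median of other genes, all 5 members were above WT in both FGR libraries. That step cancels the scale of each library, so it restates the TMM comparison and is no separate result.

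Genes were ranked by the distance between their pair of log2 ratios (each FGR library over WT) and that of summed 7SL, which was 0.19 and 0.32. The candidates were 1954 genes at a mean of at least 100 CPM. Members, pseudogenes and rows with Gm, Rik, AC or AL symbols were passed over. The rows inside Rn7s1 and Rn7s2 were thus not candidates, though AC099934.1 had a similar pattern, at 1.133 and 1.241 times WT. With 3 libraries this is a description only. Cplx2, which encodes the synaptic protein complexin 2, lay nearest (distance 0.007) with 113.3 and 124.3 CPM in FGR and 99.1 CPM in WT. Rpl22 (distance 0.037) had 156.6 and 167.2 CPM in FGR and 134.2 CPM in WT, and Rpl32 (distance 0.040) had 134.8 and 150.8 CPM in FGR and 121.6 CPM in WT. Both encode proteins of the large ribosomal subunit. Malat1, an abundant nuclear noncoding RNA, lay at a distance of 0.049 with 7803 and 8176 CPM in FGR and 6704 CPM in WT. None of these 4 passed the edgeR test (lowest adjusted p 0.05856, Rpl22).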

How the data were processed

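RNA sequencing counts of 2 FGR libraries and 1 WT library of mouse midbrain were analysed. The submitters' processing notes list HISAT2; what counted the reads, against which build and whether by strand is not given in the sources used here. The authors deposited, per library, a raw read count and an RPKM value for 49585 rows. The deposited RPKM followed from count, length and library total in all 49585 rows (tolerance 0.1 percent), and served for levels per length. Total counts of 46240262 to 58444481 set the precision, and intervals cover counting error only.

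FGR was compared with WT in edgeR 4.0.16 under R 4.3.3 (filterByExpr with minimum count 10, TMM, quasi-likelihood F test, two-sided, Benjamini-Hochberg adjustment over 25561 genes). The standard error of a log2 fold change was the change divided by the square root of F. WT, with 1 library, was taken to vary as the FGR pair does. limma-voom (limma 3.58.1) and DESeq2 1.42.0 were alternatives. TPM was computed from the deposited RPKM. Sequences came from GENCODE M21 transcripts by gene identifier (49326 of 49585 found), windows of 50 bases were compared with Python 3.11.15, and alignments used Biopython 1.88. The tests were tried on simulated data.

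The members, lists and tests were chosen with earlier results of these data known. Named were all members, the called genes and the highest gene per length of each list, and the 5 candidate genes nearest to 7SL in pattern. Srprb, Hexim1, Hexim2, Larp7, Mepce, Rpp40, Polr3e, Tbp, Gtf3c4, Rnu3b1, Rnu3b4, Terc, the Y, vault and U6 RNAs, the neighbouring genes, the rows sharing windows, Xist, Ddx3y and Eif2s3y were named after their values were seen. Some items that these rules name are not reported here. The alternatives that leave out, add or sum the sharing rows were chosen after seeing the data.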

Additional observations from a re-analysis of the deposited data

How the results depend on the processing

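All log2 fold changes of the 5 members kept their sign under every alternative run on counts. Rn7sk passed where it had not in 4 of them: with no low-count filter (0.44, adjusted p = 0.01021), in the robust edgeR fit (0.45, adjusted p = 0.02341), in DESeq2 (0.45, adjusted p = 1.378e-06) and in limma-voom (0.45, adjusted p = 0.001229). The other 4 members passed in none. The count of called genes was 2057 without a filter, 613 at a minimum count of 50 and 357 with DESeq2, against 1087; the filters left 35837 and 19562 genes to test, against 25561, and the cause with DESeq2 was not tested. Scaling by library totals put 24.4% of calls higher in FGR, against 39.0% with TMM. The mean of the median log2 ratios was -0.038 with library totals and -0.015 with the members out of them, against 0.002 with TMM. The members' share was 5.79% in FGR and 4.81% in WT with 7SL counted once, 10.3% and 8.57% relative to counts outside the members, 9.43% and 7.97% relative to counts outside the mitochondrial genome, and 14.5% and 12.2% with the sharing rows. Leaving out either FGR library gave log2 fold changes of 0.19 to 0.33 for Rn7s1, 0.18 to 0.30 for Rn7s2, 0.44 to 0.46 for Rn7sk, 0.06 to 0.28 for Rmrp and 0.21 to 0.26 for Rpph1, and a share of 8.999% to 9.676%. Rmrp is decided by FGR replicate 2, without which its value is 0.06. With an FGR library left out there were no residual degrees of freedom, so no count of calls could be had. No paired analysis was possible because the labels give no pairing of FGR with WT libraries.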
